A study of Homo sapiens with 414 samples.

Results

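Monosodium glutamate and L-phenylalanine are the amino acid compounds of a neurotoxicity screen on human neural cultures. All libraries labelled with either compound were taken, 11 for each, so 22 libraries beside 392 of other compounds in the series, 1 per compound on each of days 1, 2, 3, 4, 6, 8, 10, 15, 21, 27 and 39. Each was compared apart with all libraries of the 16 compounds labelled non-toxic on the same days, 7 to 16 per day. In the sample titles the amino acids and all other toxic compounds carry the mark Hi, and the non-toxic compounds the mark C. Any other difference between these sets of wells thus cannot be told apart from that between the compounds. The cultures were H1-NPC cells, neural progenitors of the H1 human embryonic stem cell line, seeded in wells of a 48-well plate, treated from the day of seeding (day 0) and lysed in the plate. Monosodium glutamate was labelled toxic and given at 150 µM, and L-phenylalanine was labelled toxic and given at 1 mM. The non-toxic group included DMSO at 0.1%, no library of it was assigned as the vehicle of either amino acid, and no other dose of either was measured. Each amino acid thus had 1 well per day, so its replicates are different days, and nothing in the labels says how far these wells were independent cultures. The amino acids were given at different doses, so their values stand side by side below and no test between them was made.

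Glutamate is the main excitatory transmitter of the brain. It opens ionotropic AMPA, NMDA and kainate receptors and acts on metabotropic receptors, and glial transporters clear it and glutamine synthetase turns it into glutamine, while glutamate decarboxylases make GABA from it. Phenylalanine enters cells through large neutral amino acid transporters and is hydroxylated to tyrosine, chiefly in liver, with tetrahydrobiopterin as cofactor, and its build-up harms the developing brain.

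Expression was measured as TPM, a normalised transcript level, which gives each gene's share of a library after correction for length. Differences are in log2(TPM + 1) to the non-toxic libraries of the same day and are printed ± SE. A gene is said to have risen or fallen where limma's Benjamini-Hochberg adjusted p was below 0.05 over the 16318 genes tested. Early means days 1 to 6 and late means days 8 to 39. In bulk RNA, fewer cells of a type and less RNA per cell cannot be told apart. Markers of neural progenitors and neurons were present: on day 1 the non-toxic libraries had a median of 289 TPM of SOX2, a progenitor transcription factor, and 1804 TPM of TUBB3, a neuronal tubulin.

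A single library of each compound stood apart from the rest. In the monosodium glutamate library of day 1, the median gene lay 1.46 below the non-toxic median on the log2 scale, while the non-toxic libraries of that day lay between -0.010 and 0.027. The differences in that library also sloped with transcript length, at -0.506 log2 units per doubling of length, against -0.013 to 0.012 in the non-toxic libraries. It had 11629 genes at 1 TPM or more, where the non-toxic libraries had 13360 to 13453. The L-phenylalanine library of day 21 had a median shift of -0.427 and a length slope of -0.273, with non-toxic slopes of -0.016 to 0.015 on that day. In the other 20 libraries of the amino acids the median shift stayed between -0.043 and 0.134. Among the controls, the ibuprofen library of day 8 had a shift of -1.15 and a slope of -0.487. These 3 libraries were the only ones in the comparisons with a slope below -0.15, and calls that rest on them are given with and without them. The part of RNA quality in their values was not tested.

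The number of genes that passed the test moved with those libraries. With every library, 578 of 16318 genes (3.54%) rose and 8370 (51.3%) fell in the early monosodium glutamate cultures. Without its day 1 library 60 rose and 20 fell, 0.49% of the genes tested. In the late cultures 5 genes passed (0.0306%), 3 of them higher, and without the ibuprofen control of day 8 there were 88 (0.539%), 52 higher and 36 lower. Over all days 1368 genes passed with every library (8.38%), and 6 without day 1 (0.0368%). For L-phenylalanine 146 genes passed early (0.895%), 44 higher and 102 lower, and 2 passed late (0.0123%). Over all days 10 rose and 0 fell (0.0613%), and 1 passed without its day 21 library (0.00613%). That balance turned with the controls, since without all ibuprofen libraries 141 rose and 605 fell over all days and 397 rose and 1041 fell late. Without the day 21 library and the ibuprofen library of day 8, 14 rose and 5 fell over all days. Other single libraries moved these counts as well. The late monosodium glutamate count was 1 without day 21 and 138 without day 39, and the early L-phenylalanine count was 39 without day 1 or without day 3 and 651 without day 6. Where monosodium glutamate gave 80 early calls without day 1, leaving out day 2 as well gave 5 and leaving out day 6 as well gave 524. In the late fit without the ibuprofen control, which gave 88, the count was 3 without day 21 and 939 without day 39.

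As a background, the same fit was run on every non-toxic compound with the remaining non-toxic libraries as controls. Over all days 11 of the 16 gave 0 calls, aspirin gave 5, DMSO 12, naproxen sodium 14, glyphosate 39 and ibuprofen 5161. The 10 calls of L-phenylalanine over all days lay below those of DMSO, naproxen sodium, glyphosate and ibuprofen. On days 1 to 6 DMSO gave 225 and the other 15 gave 0 to 39. The early L-phenylalanine count of 146 thus lay below that of DMSO and above those of the other 15. The 80 genes of monosodium glutamate come from days 2 to 6, so that count is not matched to this background. On days 8 to 39 ibuprofen gave 7225 calls and the other non-toxic compounds fitted gave 0 to 5, beside 5 for monosodium glutamate and 2 for L-phenylalanine. No background was run without the ibuprofen library of day 8. The 88 late calls of monosodium glutamate without it are thus not matched to these counts. The same holds for the 9 of L-phenylalanine without it and day 21. Both amino acids were compared with the same control libraries, so their lists of genes are not independent of each other.

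**Figure D1:**
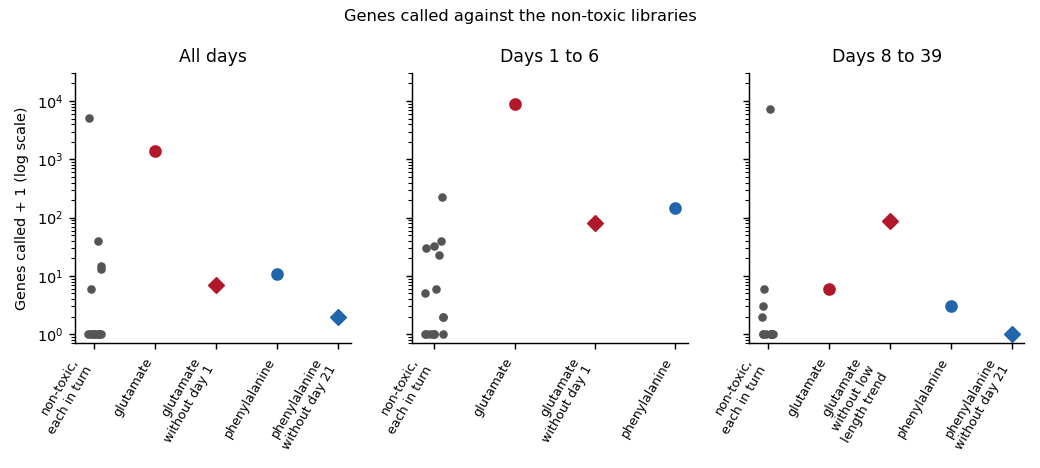
Number of genes called in either direction (adjusted p below 0.05, of 16318 tested), plus 1 on a log scale. Points show each amino acid by time window and choice of libraries, and each non-toxic compound in turn. The early monosodium glutamate count drops from 8948 to 80 once the day 1 library is left out.

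In the day 1 library of monosodium glutamate, transcripts of ribosomal and small mitochondrial proteins were high and neuronal markers were low, while progenitor markers lay on both sides of the controls. ATP5E, a small subunit of ATP synthase, stood at 5133 TPM against 727 to 867 in the non-toxic libraries of that day, and NDUFB1, a subunit of respiratory complex I, at 1204 against 161 to 198. RPL38, a ribosomal protein of the large subunit, reached 7932 TPM against 1318 to 1489. In the other direction MAP2, a dendritic microtubule protein, was at 37.5 TPM against 234 to 261. SOX2 was at 36.7 TPM against 274 to 310, and TUBB3 at 476 against 1675 to 1971. The progenitor markers FABP7, a fatty acid binding protein of radial glia, and HES5, a Notch target, went the other way, with FABP7 at 224 TPM against 113 to 144 and HES5 at 224 against 175 to 209.8. Each of these values lay outside the range of the controls, and the L-phenylalanine library of the same day had 883 TPM of ATP5E, 240 of MAP2 and 286 of SOX2.

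Genes of glutamate reception, uptake and glutamine synthesis were also low in that library. GRIA2, the AMPA receptor subunit that limits calcium entry, stood at 1.02 TPM against 10.2 to 15.2, and GRIA1, another AMPA subunit, at 38.9 against 145 to 163. The glial glutamate transporter SLC1A3 had 11.7 TPM against 84.7 to 98.1. Glutamine synthetase, GLUL, had 44.2 TPM against 166 to 177. GAD1, a glutamate decarboxylase, was at 3.17 TPM, inside the control range of 3.05 to 5.42. Summed over marker lists, neuronal markers came to 1077 TPM against 3401 to 3752, progenitor markers to 3186 against 6171 to 6614, astrocyte markers to 162 against 450 to 482, and mesenchyme markers to 737 against 2537 to 3088. All 4 sums lay below the lowest control. So did the oligodendrocyte lineage, neural crest, endothelium, microglia and blood, and pluripotency sums, while the epithelium sum of 17.5 TPM lay inside 12.65 to 20.63. The median gene of this library was also low, with a shift of -1.46, so the low sums are not particular to these cell types.

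Stress genes did not move in a single direction there. HMOX1, the oxidative stress enzyme heme oxygenase, was at 1.96 TPM against 2.60 to 6.08. HSPA1A, an inducible heat shock protein, was at 33.2 TPM against 109 to 138. DDIT3, a transcription factor of the integrated stress response, was at 31.6 TPM against 7.14 to 15.2, and MT2A, a metallothionein, at 38.2 against 4.33 to 15.7. The library most like it among all other day 1 libraries was that of the fungicide Maneb, with a Pearson correlation of 0.915 over genes, while its median correlation with the non-toxic libraries was 0.860 and that among the non-toxic libraries was 0.993. Maneb on day 1 had 124 TPM of HMOX1 and 339 TPM of HSPA1A, both above the controls, where the monosodium glutamate library lay below them. DDIT3, at 52.1 TPM in Maneb, MT2A, at 177, and ATP5E, at 2757, lay above the controls in both libraries.

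In the early fit with this library 51.3% of all genes fell and 3.54% rose. Of the 18 ionotropic receptor genes 0 rose and 11 fell, of the 18 genes of glutamate, glutamine and GABA metabolism 0 rose and 12 fell, of the 16 synaptic genes 0 rose and 14 fell, and of the 13 glutamate and cystine transporters tested 0 rose and 6 fell. Apart from the synaptic genes, these shares of falls are near that of all genes. The medians of these lists were -0.27, -0.30, -0.37 and -0.26, beside -0.21 for all genes tested. When only genes averaging 5 TPM or more were tested, 8094 of 11853 fell early, a higher share than among all genes. Of 20 respiratory chain genes 15 rose and 1 fell, and of 22 ribosomal protein genes 21 rose and 0 fell. With each library centred on its own median, which moved the median of all genes from -0.21 to 0.092, the early calls were 4654 higher and 2757 lower. The ionotropic receptors then had 3 higher and 2 lower, the transporters 3 and 3, and the metabolism genes 2 and 3, so the direction of these lists depended on the centring, while the ribosomal proteins had 22 higher and 0 lower and the respiratory chain 20 and 0. Without the day 1 library the medians of the ionotropic receptors, metabolism genes and transporters were 0.036, -0.002 and 0.041, beside 0.006 for all genes, and 1 transporter rose while 0 genes of the other 2 lists passed. STX1A was the synaptic gene that fell without that library, so the other synaptic falls rest on it.

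**Figure D2:**
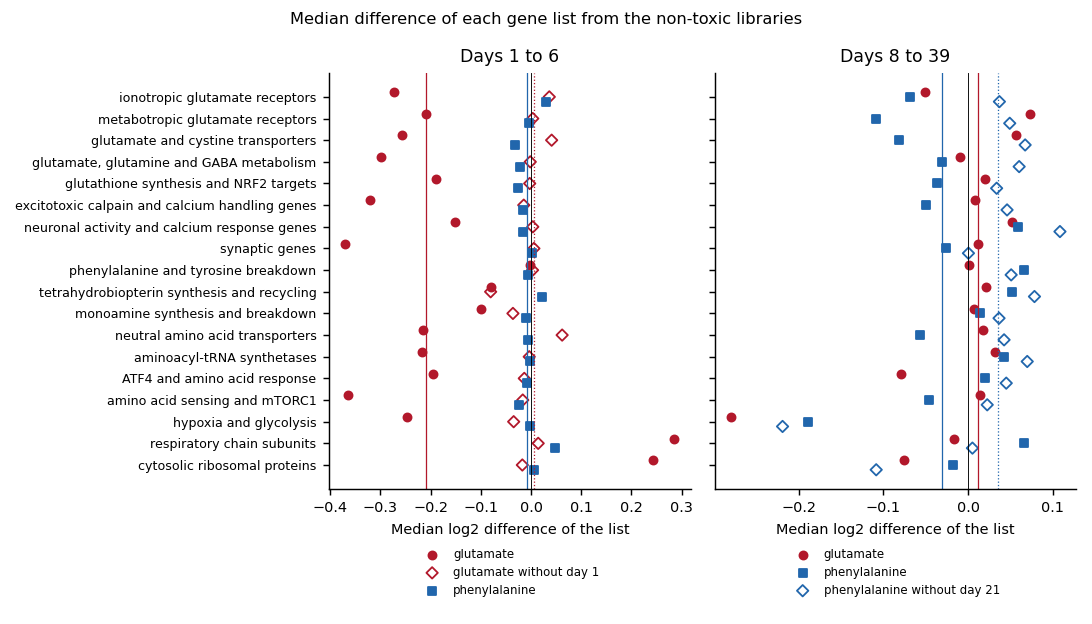
Median log2 difference of each gene list to the same-day non-toxic libraries, by compound and time window, with and without the library that stands apart, and the median of all genes tested for reference. For monosodium glutamate early, the ionotropic receptor median moves from -0.27 to 0.036 when day 1 is left out.

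On days 2 to 6 of monosodium glutamate, SLC1A2, the glutamate transporter that astrocytes use to clear the synapse, was the transporter that rose. It was at 37.3, 38.9, 29.7 and 32.0 TPM on days 2, 3, 4 and 6, where the highest non-toxic libraries had 34.5, 35.5, 33.2 and 28.1. The value lay above every non-toxic library on 3 of the 4 days, and the difference was 0.20 ± 0.05 (adjusted p = 0.0474). The call did not hold when day 2, day 3 or day 6 was also left out, with differences of 0.19, 0.18 and 0.16 (adjusted p = 0.345, 0.135 and 0.141). On day 1 it was far lower, at 7.85 TPM, and with that library the early difference was -0.26 (adjusted p = 0.0563). Among 26 other toxic compounds the early difference of SLC1A2 was above 0 in 13, with a median of -0.001. In the L-phenylalanine cultures SLC1A2 was at 36.6, 35.6, 28.2 and 27.9 TPM on the same days. SLC1A3, its counterpart in progenitors and radial glia, had a difference of 0.11 ± 0.03 that did not pass (adjusted p = 0.0794), and -0.48 with day 1 (adjusted p = 0.00324), with 104, 130.2, 139 and 177 TPM on days 2, 3, 4 and 6.

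Of 18 ionotropic and 8 metabotropic receptor genes, limma called 0 on days 2 to 6, with 2 and 0 at an unadjusted p below 0.05. Among all 16318 genes 1866 had such a p. GRIA2 was at 16.5, 21.3, 30.5 and 55.9 TPM on those days, with a difference of -0.07 and a 95% interval of -0.18 to 0.03. GRIA1 had a difference of 0.06 ± 0.03, and GRIN1, the obligatory NMDA receptor subunit, one of -0.18 ± 0.10. The vesicular glutamate transporter SLC17A6 differed by -0.03 ± 0.05 and the cystine-glutamate exchanger SLC7A11 by 0.04 ± 0.08. GLUL had 181.1, 172, 173 and 162 TPM beside non-toxic medians of 172, 181, 174 and 152, and a difference of 0.01 ± 0.02 with an interval of -0.03 to 0.06. Of the 16 genes of neuronal activity and calcium response 0 passed, also at an unadjusted p below 0.05, and FOS, an immediate early gene, differed by 0.05 with an interval of -0.29 to 0.40.

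STX1A, a syntaxin of the presynaptic fusion machinery, was the synaptic gene that fell. It was at 15.6, 15.7, 22.1 and 36.1 TPM on days 2, 3, 4 and 6, against non-toxic medians of 18.2, 21.8, 26 and 42.1. All 4 values lay below the median of their day, and that of day 3 lay below all non-toxic libraries. The difference was -0.27 ± 0.06 (adjusted p = 0.0313), and it was -0.49 with day 1 included. Leaving out day 2 or day 3 as well gave -0.29 and -0.21 (adjusted p = 0.162 and 0.193).

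Outside the glutamate lists, HELZ, TNRC6B, CBX5 and CCND2 were among the genes that rose on days 2 to 6. HELZ, an RNA helicase, was at 20.2, 21.3, 17 and 20.8 TPM, above the highest non-toxic values of 18, 17.3, 16.4 and 19.2 on each of the 4 days, with a difference of 0.31 ± 0.05 (adjusted p = 8.03e-05). TNRC6B, a partner of Argonaute in microRNA silencing, rose by 0.30 ± 0.05, and CBX5, the heterochromatin protein HP1 alpha, by 0.27 ± 0.04. CBX5 stood at 174, 167, 145 and 163 TPM against non-toxic maxima of 155, 145, 142 and 146, so it too lay above all controls on each day. CCND2, a cyclin of the G1 phase, rose by 0.29 ± 0.06 (adjusted p = 0.0101), at 82.6, 90.5, 66.6 and 76.2 TPM. On day 1 all of them lay below every control, HELZ at 2.49 TPM against 14.6 to 19.2, TNRC6B at 2.19 against 13.1 to 15.6, CBX5 at 31.2 against 154 to 181 and CCND2 at 52.6 against 70.8 to 101. With that library the early differences were -0.23 for HELZ, -0.22 for TNRC6B, -0.27 for CBX5 and 0.08 for CCND2, and none passed (adjusted p = 0.138, 0.149, 0.0762 and 0.363). Without it, HELZ, TNRC6B and CBX5 kept their call when any other of the 4 days was also left out, and CCND2 lost it without day 2 (adjusted p = 0.143) or day 3 (adjusted p = 0.0522). Among the falls, DLK1, a non-canonical Notch ligand, had 120.3, 72.1, 64.3 and 49.6 TPM, below every non-toxic library on days 2, 3 and 4 and inside their range on day 6. Its difference was -0.35 ± 0.06 (adjusted p = 0.00148), and with every library it was -0.74. Without day 3 as well it was -0.25 (adjusted p = 0.159).

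TNRC6B, CBX5 and IRGQ, a GTPase-like protein, also rose early with L-phenylalanine, by 0.19 ± 0.04, 0.17 ± 0.04 and 0.18 ± 0.04. TNRC6B had 15.7, 15.8, 15.0, 15.4 and 17.7 TPM on days 1, 2, 3, 4 and 6 there, above all non-toxic libraries on the first 4 of these days. The comparisons share their controls, so these are not separate observations. The calls for L-phenylalanine did not hold without day 3 for TNRC6B (adjusted p = 0.0856) and CBX5 (adjusted p = 0.113), nor without day 2 for IRGQ (adjusted p = 0.139). IRGQ had a difference of 0.24 ± 0.04 over all days of monosodium glutamate (adjusted p = 8.75e-06), and 0.24 without day 1.

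In the late monosodium glutamate cultures, the RNA-binding protein HNRNPM and the spindle checkpoint gene MAD2L1 rose. HNRNPM was at 491, 363, 325, 369.8, 342 and 146 TPM on days 8, 10, 15, 21, 27 and 39, against non-toxic maxima of 436, 354, 299, 326, 320.1 and 151. It lay above all controls on every late day except day 39, and the difference was 0.23 ± 0.04 (adjusted p = 0.0118). MAD2L1 was at 43.9, 40.1, 28.6, 37.7, 34.7 and 15.2 TPM against maxima of 36.7, 29.8, 25.1, 29.3, 33.1 and 21.8, above every control except on day 39, and differed by 0.40 ± 0.08 (adjusted p = 0.0356). With each library centred on its median the differences of HNRNPM and MAD2L1 were 0.21 and 0.39 and neither passed, with adjusted p of 0.302 and 0.0846. Without day 21 the values were 0.22 for HNRNPM (adjusted p = 0.194) and 0.36 for MAD2L1 (adjusted p = 0.392). MAD2L1 also lost its call without day 10, 15 or 27, with adjusted p of 0.156, 0.112 and 0.0605. Other toxic compounds showed the same side for both genes: of 19 sampled late, 19 had HNRNPM above the non-toxic mean and 17 had MAD2L1.

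The 2 late falls were MIA, a secreted protein first known from melanoma, and C1orf51, a repressor of the circadian clock. C1orf51 was at 4.27 TPM on day 8 of monosodium glutamate, inside the control range of 3.02 to 5.64, and then at 3.38, 5.68, 8.58, 17.6 and 12.1 TPM on days 10, 15, 21, 27 and 39, below non-toxic minima of 4.75, 7.68, 15, 20 and 12.8 on each of them. Its difference was -0.51 ± 0.10 (adjusted p = 0.0223), and -0.52 with median centring (adjusted p = 0.0202). Without day 21 it was -0.42 (adjusted p = 0.392), and without day 10, 15 or 27 the adjusted p was 0.056, 0.0712 and 0.0605. MIA was at 3.07 and 0.76 TPM on days 8 and 10 and listed at 0 on days 15, 21, 27 and 39. The non-toxic libraries had medians of 4.17, 3.48, 1.03, 2.68, 0.93 and 0.305 TPM on these days and some were also listed at 0, so its difference of -1.04 ± 0.22 (adjusted p = 0.0404) rests on low values, and it did not pass without day 10, 15, 21 or 27 (adjusted p = 0.116, 0.112, 0.504 and 0.121).

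The hypoxia and glycolysis list holds genes known to respond to low oxygen, and in late monosodium glutamate cultures with every control 0 of its 14 genes passed limma's test. All 14 lay below 0, with a median of -0.28 beside 0.012 for all genes. An unadjusted p below 0.05 was found for 10 of them, and for 1164 of all 16318 genes. Without the ibuprofen library of day 8, VEGFA, ADM and PDK1 fell, 3 of 14 in a fit that called 0.539% of all genes. VEGFA, the vascular growth factor, was at 6.71, 5.07, 4.23, 17.8, 81.8 and 250.0 TPM on days 8, 10, 15, 21, 27 and 39, against non-toxic ranges of 2.08 to 7.77, 4.22 to 14.5, 8.83 to 42.9, 37.2 to 94.8, 109 to 208 and 245 to 335. It lay below every control on days 15, 21 and 27 and inside their range on days 8, 10 and 39, above their median of 6.07 on day 8. The difference was -0.85 ± 0.19 without that library (adjusted p = 0.0214) and -0.82 ± 0.20 with it (adjusted p = 0.144). Median centring with every library gave -0.83 (adjusted p = 0.0407). Without the ibuprofen library and also without day 15, 21 or 27 it was -0.65, -0.68 and -0.84 (adjusted p = 0.112, 0.265 and 0.0553).

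PDK1, a kinase that holds pyruvate back from mitochondria, was at 4.25 and 6.11 TPM on days 8 and 10, inside the control ranges, and at 6.76, 10.2, 31.5 and 79.5 TPM on days 15, 21, 27 and 39, below all controls on each, whose minima were 7.53, 13.9, 48.4 and 83.5. Its difference was -0.61 ± 0.15 without the ibuprofen library (adjusted p = 0.0415) and -0.58 with it (adjusted p = 0.231). ADM, the vasodilator peptide adrenomedullin, differed by -0.77 ± 0.16 and -0.75 in the same way (adjusted p = 0.014 and 0.0747). DDIT4, an inhibitor of mTORC1, had 82.2 and 75.2 TPM on days 8 and 10, inside the control ranges, and then 53.9, 158, 255 and 237 TPM against minima of 91.3, 182, 361 and 242, and a difference of -0.56 ± 0.12 (adjusted p = 0.0131, and 0.0585 with every control). KDM3A, a histone demethylase, was at 33.7 and 31.9 TPM on days 8 and 10, inside the control ranges, and then at 28.6, 39.7, 74.8 and 116 TPM, below minima of 39.7, 50.1, 102 and 133, and differed by -0.47 ± 0.08 (adjusted p = 0.00308, and 0.236 with every control). The call of KDM3A held when any further day was left out of that fit. PDK1 and DDIT4 lost theirs without day 15, 21 or 27, with differences of -0.55, -0.49 and -0.50 for PDK1 (adjusted p = 0.122, 0.306 and 0.124) and -0.43, -0.55 and -0.48 for DDIT4 (adjusted p = 0.0857, 0.0768 and 0.0537), and ADM without day 15 or 21 (adjusted p = 0.108 and 0.091).

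Other toxic compounds, set against the same controls, mostly lay below 0 for these genes as well. Without libraries of a low length slope, VEGFA lay below 0 in 18 of 19 other toxic compounds with a median of -0.45, PDK1 in 19 with -0.46, KDM3A in 17 with -0.23 and DDIT4 in 15 with -0.18. In L-phenylalanine VEGFA was at 11.01, 35.6, 98.3 and 361 TPM on days 15, 21, 27 and 39, and its late difference was -0.35 ± 0.19 (adjusted p = 0.515). Its day 39 value thus lay above all controls, where that of monosodium glutamate lay within them.

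GAD2 and GAD1, the decarboxylases that make GABA, had late differences below 0, and GAD2 fell in the fit without the ibuprofen library. GAD2 was at 79.2, 85.8, 81.6, 74.0, 65.3 and 67.8 TPM on days 8, 10, 15, 21, 27 and 39 of monosodium glutamate, and on days 10, 15, 21 and 27 it lay below the non-toxic minima of 86.8, 93.1, 85 and 69.1. It differed by -0.20 ± 0.05 without the ibuprofen library (adjusted p = 0.0378) and by -0.18 ± 0.07 with it (adjusted p = 0.527), and was the only called gene of the 18 in its list. Its call was lost when day 15, 21 or 27 was also left out (adjusted p = 0.17, 0.354 and 0.0739). GAD1 was at 110.3 and 132 TPM on days 8 and 10, inside the control ranges, and at 129.7, 172, 222 and 277 TPM on days 15, 21, 27 and 39, below all controls. Its difference of -0.27 ± 0.07 did not pass (adjusted p = 0.0589), nor did that of -0.25 with every control (adjusted p = 0.381). All 19 other toxic compounds lay below 0 for GAD2, with a median of -0.26, and for GAD1, with -0.41. In L-phenylalanine GAD2 differed by -0.04 ± 0.07.

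In the late window limma called 0 of the ionotropic receptors, metabotropic receptors and glutamate transporters, with or without the ibuprofen library. Without it 0, 3 and 2 of them had an unadjusted p below 0.05, beside 2288 of all 16318 genes. Their medians without it were -0.082, 0.049 and 0.034, beside -0.003 for all genes. SLC1A2 was above all controls on days 10, 15 and 21, at 28.5, 37.1 and 39.6 TPM, inside their range on days 8 and 27, at 25.9 and 48.8, and below all of them on day 39, at 28.4. GLUL differed by 0.10 ± 0.04 without the ibuprofen library (adjusted p = 0.24) and by 0.13 with it (adjusted p = 0.91).

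CDR1, a brain-expressed gene, reached 56.1, 81.9 and 253.5 TPM on days 8, 15 and 21 of monosodium glutamate, where the highest controls had 17.5, 26.4 and 33.4. On day 10 it lay just below the lowest of them, at 9.31, and on day 27 it was at 15.6, inside their range, and on day 39 at 29.4, above their maximum of 23.2. The late difference was 1.2 ± 0.26 without the ibuprofen library (adjusted p = 0.0161) and 1.24 ± 0.30 with it (adjusted p = 0.113), and 17 of 19 other toxic compounds lay above 0. Without day 21 as well it was 0.79 (adjusted p = 0.384), and it also lost its call without day 8 or 15 (adjusted p = 0.0784 and 0.14). The libraries were made with a kit that does not mark strand, so reads of CDR1 and of an antisense transcript of its locus cannot be told apart. Of 21 p53 target genes 2 rose in that fit, where 52 of 16318 genes rose, MDM2, the ubiquitin ligase of p53, by 0.26 ± 0.07 (adjusted p = 0.0466) and CCNG1, cyclin G1, by 0.20 ± 0.05 (adjusted p = 0.0458). With every control 0 of the 21 passed, and the differences were 0.27 for MDM2 (adjusted p = 0.231) and 0.22 for CCNG1 (adjusted p = 0.551). MDM2 was at 27.8, 24.7, 24.7, 31.5 and 30.4 TPM on days 8, 10, 15, 21 and 27, above maxima of 25.5, 22.8, 17.8, 23 and 26.9, and on day 39 at 17.9, below the minimum of 20.8. Neither p53 target kept its call without day 8, 15 or 21, with adjusted p of 0.0804, 0.28 and 0.45 for MDM2 and 0.13, 0.278 and 0.174 for CCNG1, nor MDM2 without day 27 or CCNG1 without day 10 (adjusted p = 0.101 and 0.0566).

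**Figure D3:**
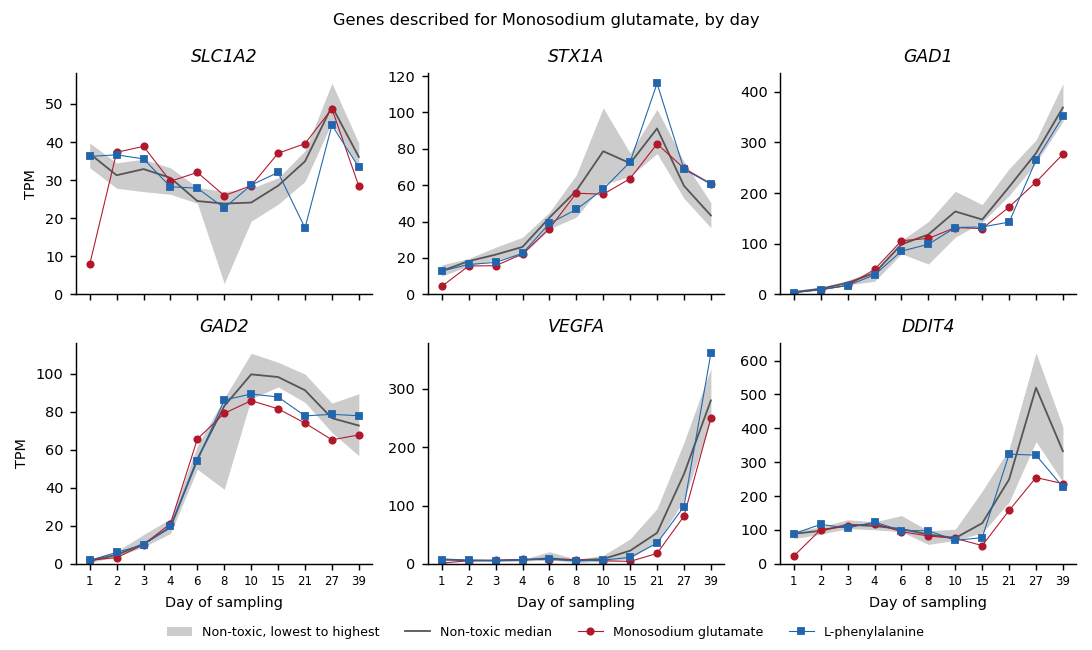
TPM of SLC1A2, STX1A, GAD1, GAD2, VEGFA and DDIT4 by day in the monosodium glutamate and L-phenylalanine libraries, with the range and median of the same-day non-toxic libraries. With monosodium glutamate, SLC1A2 is at 7.85 TPM on day 1 and exceeds the controls on days 2, 3 and 6, while VEGFA lies below them on days 15, 21 and 27.

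The change of the difference from early to late was tested directly. Without day 1, 17 genes differed between the windows for monosodium glutamate (0.104%), and with it 6741 did (41.3%). MAD2L1 was 0.59 ± 0.10 higher relative to the controls late than early (adjusted p = 0.000213) and MIA differed by -1.57 ± 0.34 (adjusted p = 0.0197). With the ibuprofen library also out, MAD2L1 kept its call without any other single day, and MIA lost it without day 2 or 21 (adjusted p = 0.0596 and 0.0689). With day 1 these differences were 0.94 and -1.68. SPTSSA, a small subunit of serine palmitoyltransferase, also had a positive change of 0.50 ± 0.11, which did not pass without the ibuprofen library and day 2, 4 or 21 (adjusted p = 0.0596, 0.132 and 0.0687).

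In the L-phenylalanine cultures, of 12 genes of phenylalanine and tyrosine breakdown 0 passed limma's test in any window, and 1 early and 2 late had an unadjusted p below 0.05. Among all 16318 genes 1872 early and 1676 late had such a p. GOT2, a mitochondrial aminotransferase that also acts on glutamate, differed by 0.13 ± 0.05 late (adjusted p = 0.29).

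Of 10 genes that make or recycle tetrahydrobiopterin, QDPR fell early and 0 rose. QDPR, dihydropteridine reductase, regenerates the cofactor after phenylalanine hydroxylation. It was at 52.7, 47.6, 41.9, 41.2 and 42.5 TPM on days 1, 2, 3, 4 and 6, against non-toxic minima of 52.9, 46.0, 43.6, 41.5 and 43.3. It thus lay below all controls on 4 of 5 days, by small margins, and the difference was -0.17 ± 0.04 with a 95% interval of -0.26 to -0.09 (adjusted p = 0.0248). Median centring gave -0.16 (adjusted p = 0.0498). Leaving out day 1, 2 or 3 gave -0.19, -0.17 and -0.17, none of which passed (adjusted p = 0.093, 0.0583 and 0.115). The late difference was 0.05 ± 0.05, and on day 21 the gene stood at 87.2 TPM, above the highest control of 76.1. Among 26 other toxic compounds the early median was -0.009, and monosodium glutamate had 45.9, 41.6, 45.4 and 48.9 TPM on days 2, 3, 4 and 6, a difference of -0.12 ± 0.05 that did not pass (adjusted p = 0.35). The synthesis enzymes GCH1, PTS and SPR differed by 0.09, -0.00 and 0.13 early and did not pass.

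Genes of monoamine synthesis and breakdown also gave 0 limma calls of 12 tested in the early and late windows, and 0 at an unadjusted p below 0.05. TH, tyrosine hydroxylase, was at 25.8 and 33.4 TPM on days 15 and 21, above maxima of 18.1 and 20.1, but at 3.99 on day 10, below the minimum of 5.38. Its late difference was 0.15 ± 0.14 with day 21 (adjusted p = 0.726) and -0.01 ± 0.16 without it.

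The list of neutral amino acid transporters, not all of which carry phenylalanine, gave 0 limma calls of 14 tested in either window, and 0 at an unadjusted p below 0.05. SLC7A5, the light chain of the large neutral amino acid transporter, was at 18.8 TPM on day 1 and 98.4 on day 39, where the controls had medians of 17.2 and 82.5, and its differences were 0.07 ± 0.07 early and 0.04 ± 0.10 late. SLC3A2, its heavy chain, differed by -0.04 early and 0.10 late. Of 21 aminoacyl-tRNA synthetase genes 0 passed in either window, with 2 early and 6 late at an unadjusted p below 0.05. The numbers over all 16318 genes were 1872 early and 1676 late. GARS, which charges glycine, differed by 0.10 ± 0.03 early (adjusted p = 0.0757), and by 0.11 ± 0.03 with median centring (adjusted p = 0.0365).

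Over all days, 10 genes rose with L-phenylalanine. PSMC1, an ATPase of the proteasome base, was at 235, 227, 216, 217 and 209 TPM on days 1, 2, 3, 4 and 6 and at 202, 205, 197, 208, 199 and 176 on the late days. The control medians on those days were 218, 207, 200, 201, 207, 199, 191, 186, 186, 178 and 140, so PSMC1 was higher on each of 11 days. The difference was 0.12 ± 0.02 (adjusted p = 0.000225), and it was the gene that still passed without day 21 (adjusted p = 0.00171). Of 19 other toxic compounds 18 lay above 0 late for PSMC1, with a median of 0.061. The chaperonin subunit CCT3 rose by 0.09 ± 0.02, the nuclear transport cofactor RANBP1 by 0.11 ± 0.02 and the phosphatase PPM1G by 0.11 ± 0.02, all small changes.

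ATF4, the transcription factor of the amino acid response, rose by 0.10 ± 0.02 (adjusted p = 0.0497). It was above all controls on days 1, 3, 4, 21, 27 and 39, with 717, 628 and 599 TPM on the last 3 of these against maxima of 645, 575 and 536. It lay inside their range on days 2, 8, 10 and 15, and below the minimum of 790.4 on day 6, at 775. Without day 21 the difference was 0.08 ± 0.02 (adjusted p = 0.421), and it also missed the threshold without day 1, 2, 3, 4, 27 or 39, with adjusted p of 0.054 to 0.163. It was the only gene to pass of the 18 in its list, and ASNS, asparagine synthetase, a target of ATF4, differed by -0.01 early and 0.11 late.

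Early falls with L-phenylalanine included SPTSSA and GNG10, a G protein gamma subunit. SPTSSA was at 36, 36.7, 26.6, 16.6 and 16 TPM on days 1, 2, 3, 4 and 6 against non-toxic minima of 39, 34.7, 29, 24.8 and 13.6. It lay below all controls on days 1, 3 and 4, and its difference was -0.33 ± 0.06 (adjusted p = 0.000917), or -0.21 without day 4 (adjusted p = 0.0552). GNG10 was at 61.7, 52.1, 44.1, 29.9 and 19.7 TPM, below all controls on days 2, 4 and 6, with a difference of -0.32 ± 0.07 (adjusted p = 0.00955), or -0.24 without day 4 (adjusted p = 0.121). GNG10 shares exons with a read-through transcript of its neighbour, so its value is uncertain. NOTCH1, a receptor that maintains neural progenitors, was at 153, 195, 185, 208 and 168 TPM and below all controls on days 1, 3 and 4. Its difference was -0.14 ± 0.04 (adjusted p = 0.0292, and 0.0576 with median centring), and it was the 1 of 12 progenitor markers that passed, while all 26 other toxic compounds lay below 0 with a median of -0.21. NOTCH1 did not pass without day 1, 3 or 4 (adjusted p = 0.235, 0.35 and 0.0661). MAD2L1 fell early by 0.21 on the log2 scale (adjusted p = 0.0109), and without day 4 its difference was -0.14 (adjusted p = 0.215).

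Early rises with L-phenylalanine were led by SGK196, a kinase of the dystroglycan sugar chain, at 0.51 ± 0.11 (adjusted p = 0.00799), or 0.44 without day 1 (adjusted p = 0.0813). DSP, the desmosome protein desmoplakin, was at 8.30, 3.90, 5.66, 1.61 and 2.54 TPM on days 1, 2, 3, 4 and 6, above all controls on days 1, 3 and 6, with a difference of 0.35 ± 0.09 (adjusted p = 0.0441). Without day 3 the difference of DSP was 0.18 (adjusted p = 0.567), and without day 1 it was 0.36 (adjusted p = 0.175). LAMA5, a laminin chain of basement membranes, fell by 0.25 on the log2 scale (adjusted p = 0.0266), a call lost without day 1, 3 or 6 (adjusted p = 0.198, 0.18 and 0.0564). Mesenchyme and matrix markers lay above 0 in 11 of 12 genes early, with a median of 0.185 beside -0.009 for all genes. Of these 0 passed limma's test and 6 had an unadjusted p below 0.05, beside 1872 of all 16318 genes. Their sum was 3610, 1576, 1886, 805 and 778 TPM on days 1, 2, 3, 4 and 6 of L-phenylalanine, above all controls on days 1 and 3, whose maxima were 3088 and 1525, below the control medians of 1736 and 916 on days 2 and 4, and inside the range on day 6. With monosodium glutamate the sum was also above all controls on day 3, at 2036 TPM. It lay below all of them on days 1, 2 and 6, at 737, 1490 and 673 TPM, and inside the range on day 4. The part of such cells in the early differences was not tested.

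Late, 2 genes passed for L-phenylalanine with every library, and neither did without day 21. U2AF1, a splicing factor that reads the 3′ splice site, was at 293, 273, 229, 278, 225 and 153 TPM on days 8, 10, 15, 21, 27 and 39 against maxima of 276, 264, 215, 212, 209 and 174. It lay above all controls on every late day but day 39, and its difference was 0.20 ± 0.04 (adjusted p = 0.0239), or 0.14 ± 0.04 without day 21 (adjusted p = 0.491) and 0.19 without day 27 (adjusted p = 0.0631). RGNEF, a guanine nucleotide exchange factor, was at 0.30, 0.30, 0.94, 1.17, 2.95 and 2.68 TPM and differed by -0.47 ± 0.09 (adjusted p = 0.0239), or -0.37 without day 21 (adjusted p = 0.403). Without day 21 limma called 0 genes (0.0%), while 813 had an unadjusted p below 0.05.

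Without the day 21 and ibuprofen libraries 9 genes rose and 0 fell late (0.0552%). NEFM, the medium neurofilament of axons, was at 143, 139, 179, 326, 563 and 639.8 TPM on the late days, above the highest controls of 131, 172, 316, 528 and 563 from day 10 on, and its difference was 0.23 ± 0.05 (adjusted p = 0.0486). With every library it was 0.25 ± 0.10 (adjusted p = 0.365), and of 19 other toxic compounds 10 lay above 0. MINOS1, a component of the inner mitochondrial membrane, differed by 0.24 ± 0.04 (adjusted p = 0.0068), and by 0.20 with every library (adjusted p = 0.0965). Of 12 neuronal markers NEFM was the 1 that passed. The call of NEFM was lost when day 10, 15, 27 or 39 was also left out (adjusted p = 0.11, 0.0955, 0.103 and 0.0536), and that of MINOS1 without day 10 or 15 (adjusted p = 0.0533 and 0.0955).

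The hypoxia list had the same sign in both amino acids without being called in L-phenylalanine. Without day 21 its late median there was -0.219 beside 0.035 for all genes, with 0 of 14 genes above 0, 0 passing and 6 at an unadjusted p below 0.05. Genes of G2 and mitosis lay above 0 in 14 of 14 late, with a median of 0.239, and S phase genes in 14 of 14, with 0.128; 0 passed limma's test, and 5 and 4 had an unadjusted p below 0.05. In monosodium glutamate the late medians of these lists were 0.225 and 0.105, again with 14 of 14 above 0, 0 passing and 6 and 2 at an unadjusted p below 0.05. Of all 16318 genes tested late, 813 had an unadjusted p below 0.05 for L-phenylalanine without day 21, and 1676 with every library. For monosodium glutamate 1164 did with every control and 2288 without the ibuprofen library. The control libraries are the same for both compounds.

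For L-phenylalanine 48 genes differed between the late and early windows (0.294%), and 8 did without day 21. SLC2A3, the neuronal glucose transporter, was above all controls on day 6, at 21.1 TPM against 20.1, and on day 3, at 19.01 against 18.2, and inside their range on days 1, 2, 4, 8, 10 and 15. It was then at 23.7, 45.9 and 47.6 TPM on days 21, 27 and 39, below minima of 37.5, 50.7 and 70.6. Its late minus early difference was -0.52 ± 0.11 (adjusted p = 0.022), and -0.42 without day 21 (adjusted p = 0.125). It also missed the threshold without any of days 1, 2, 3, 4 and 39, with adjusted p of 0.0501 to 0.106. EEF1A2, a neuronal elongation factor, changed by 0.44 ± 0.09 (adjusted p = 0.02), and stood at 907 TPM on day 21 where the highest control had 431. Without that library its change was 0.25 ± 0.08 (adjusted p = 0.241), and without day 1, 2, 3 or 4 the adjusted p was 0.0501 to 0.12. GNG10 changed by 0.46 ± 0.10 and DSP by -0.76 ± 0.16, and without day 21 by 0.46 (adjusted p = 0.0434) and -0.62 (adjusted p = 0.0913). GNG10 lost its call without day 2, 4 or 15 (adjusted p = 0.0654, 0.141 and 0.0702), and DSP without day 1 or 3 (adjusted p = 0.0725 and 0.214).

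**Figure D4:**
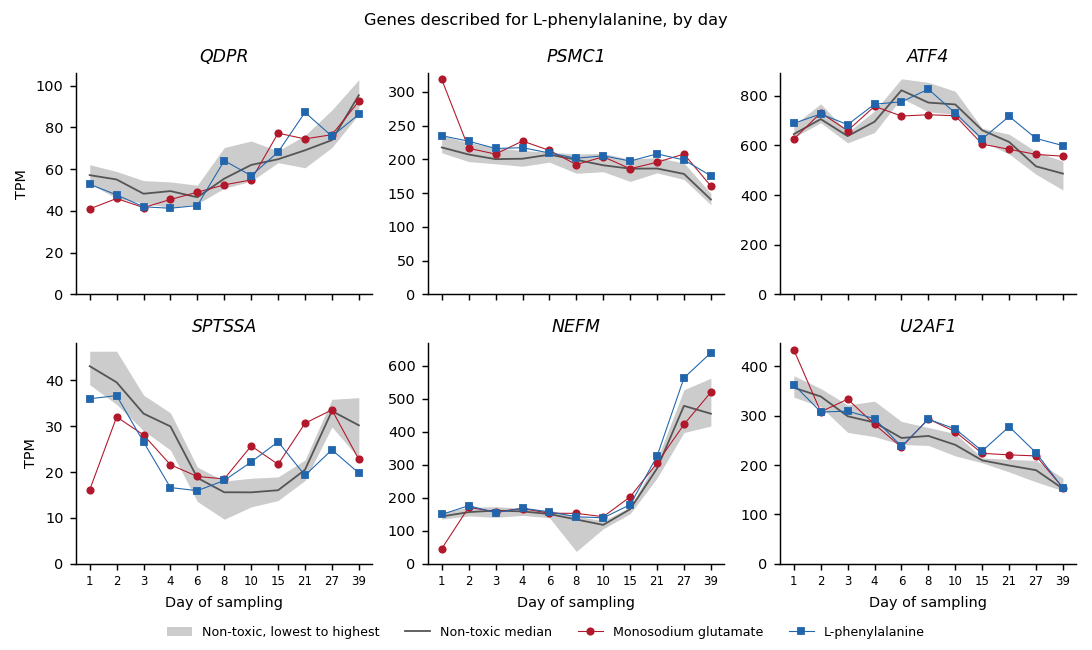
TPM of QDPR, PSMC1, ATF4, SPTSSA, NEFM and U2AF1 by day in the L-phenylalanine and monosodium glutamate libraries, with the range and median of the same-day non-toxic libraries. With L-phenylalanine, QDPR lies just below the controls on days 1, 3, 4 and 6, and PSMC1 lies above the control median on each of 11 days.

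Summed markers of other cell types lay outside the control range on some days with each amino acid. The microglia and blood list summed to 2.81 to 9.49 TPM over the days of both amino acids and the endothelial list to 12.5 to 23.4 TPM, with 5 to 7 of the 9 microglia and blood genes at a median of 0 in the controls of each day. Mesenchyme markers were lower than in all controls on days 15 and 21 with both amino acids, at 1223 and 2733 TPM for monosodium glutamate and 1209 and 2172 TPM for L-phenylalanine, against 1464 to 2154 and 2904 to 4971 TPM. On day 39 they were at 10427 TPM with monosodium glutamate, above all controls, and at 4972 TPM with L-phenylalanine, below all of them. Oligodendrocyte lineage markers were above the control maximum of 207 TPM on day 39, at 217.5 with monosodium glutamate and 210.1 with L-phenylalanine, neural crest markers above 595 TPM on day 10, at 607 and 635, and pluripotency markers above 36 TPM on day 27, at 37.1 and 43.4. Both of the latter lists lay below all controls on another day. Neural crest markers were at 531 and 533 TPM on day 4, below 541, and pluripotency markers at 43.1 and 44.3 TPM on day 15, below 46.4. The part of these cell types in the late differences of VEGFA, PDK1, DDIT4 and SLC2A3 was not tested.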

How the data were processed

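RNA from H1-NPC cultures was sequenced with TruSeq RNA v2 libraries, per the labels' protocols. The values are the gene-level TPM that the authors deposited, with column sums of 999999.07 to 1000001.1. The submitters' processing notes name CASAVA 1.8.2, RSEM 1.2.1, Bowtie 0.12.8 and build hg19. Read counts were not analysed here, so depth is unknown, no interval for counting error is given, and a value listed at 0 does not show absence.

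Of 19084 genes, the 16318 that reached 1 TPM in 5 or more libraries were tested. The fit of each amino acid used limma 3.58.1 (R 4.3.3, with the data.table package, version 1.17.8) on log2(TPM + 1), with day as a factor, compound as a random block (correlation 0.0212) and an intensity trend. The pseudocount of 1 understates changes of low genes. Only days with a library of the compound entered its fit, so leaving out such a library also removes that day's controls. With day as a factor, p-values rest on the spread among wells of the same day, mostly control wells of different compounds. That spread may be technical. Length slopes and median shifts used the 10328 genes averaging 10 TPM or more, of which 9613 (93.1%) had a GENCODE 29 length, with exact permutation tests within days. Tables and figures used Python 3.11.15, pandas 2.3.3, numpy 2.4.6, scipy 1.17.1 and matplotlib 3.10.9.

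Named genes were taken from called genes that averaged 1 TPM or more and kept their sign on 80% of days or more, the 10 largest rises and falls per window, the 5 smallest adjusted p each way for the change between windows, and members of the lists matched to each compound. Values of SOX2, TUBB3, MAP2, stress genes and other genes in the day 1 library were chosen after seeing the data. The members and lists were chosen with earlier results of these data known. On simulated data 98.5% to 100% of genes planted with a log2 difference of 0.5 were found again. Of those planted with 0.2, 64.2% early and 65.7% late were found for monosodium glutamate and 62.7% and 64.2% for L-phenylalanine. The simulated noise was independent between wells, with its spread taken from the non-toxic libraries without ibuprofen. No simulated library stood apart, and only genes of higher expression were planted. These shares therefore do not apply to reported fits that hold a library that stood apart, nor to low genes. Some genes that passed are not reported here.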

Additional observations from a re-analysis of the deposited data

Results flagged for a closer look

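Of 50 groups of 4 to 10 libraries tested, 17 held a library far from the others by Dixon's criterion. Chance gives about 1 in 20 in independent groups, but most groups here were genes chosen from these same data. The same day 1 library also recurs among them, so the 17 cannot be set against that rate. For the library values these were monosodium glutamate on day 1 (shift -1.46, length slope -0.506), L-phenylalanine on day 21 (shift -0.427, length slope -0.273) and the ibuprofen control on day 8 (shift -1.15, length slope -0.487).

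For single genes, the day 1 library of monosodium glutamate stood apart from the other early libraries of the compound in its difference to the non-toxic median. The log2 difference was 2.65 for ATP5E, -2.73 for GRIA2, -2.86 for SLC1A3, -2.10 for SLC1A2, -1.37 for STX1A, -2.31 for DLK1, -2.26 for TNRC6B and -2.40 for CBX5. With L-phenylalanine, SPTSSA on day 4 (-0.81), RGNEF on day 21 (-0.96) and NEFM on day 39 (0.49) stood apart.

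The differences between the late and early windows passed limma's test for MAD2L1 (0.59) and MIA (-1.57) with monosodium glutamate without day 1, and for EEF1A2 (0.44), GNG10 (0.46), SLC2A3 (-0.52) and DSP (-0.76) with L-phenylalanine.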

How the results depend on the processing

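In the order all days, days 1 to 6, days 8 to 39 and late minus early, the reported counts were 1368, 8948, 5 and 6741 for monosodium glutamate and 10, 146, 2 and 48 for L-phenylalanine.
For monosodium glutamate the counts that moved by over 1.5 times were: with median centring 14 late and 4277 for the change; without a filter 12 late; without the compound block 3257 and 11; without ibuprofen 5315 and 63; without libraries of low length slope 85, 80, 88 and 97; with length as covariate 820, 200, 423 and 2028; with the 6 compounds sampled on all days 2, 0, 11 and 3751. Leaving out each library in turn gave 6 to 6229, 80 to 9742, 1 to 138 and 17 to 8307, the lowest early and over all days without day 1 and the highest over all days without day 8.
For L-phenylalanine they were: with median centring 28, 4 and 130 for all days, late and the change; with a pseudocount of 0.1 31 for the change; without a filter 18 late; with a mean of at least 5 TPM 3 and 0; without the compound block 41, 243, 31 and 27; without ibuprofen 746, 1438 and 1327; without libraries of low length slope 19, 9 and 115; with length as covariate 258, 236, 577 and 757; with the 6 compounds 2, 17 and 11; without the intensity trend 2, 1 and 24. Leaving out each library gave 1 to 1246, 39 to 651, 0 to 2554 and 1 to 2553, the lowest over all days and late without day 21 and the highest of both without day 8, which also drops the ibuprofen control.
Replicate numbers stand for days, so day is the replicate block. With no replicate block the counts were 0, 6173, 0 and 5588 for monosodium glutamate and 0, 0, 0 and 4615 for L-phenylalanine. Without day, late minus early compares the compound's own late and early levels, so it holds the time course of the cultures. In that setting it was -1.20 for MAD2L1, -0.11 for GNG10 and 0.68 for SLC2A3, which are not changes of the difference to the controls.
The early shift of monosodium glutamate, -0.286 (exact permutation p = 0.0479), was -0.285 without ibuprofen (p = 0.0516) and -0.365 to 0.00819 when libraries were left out, and its length slope, -0.0936, -0.127 to 0.00956. Late its slope of 0.00375 was -0.00428 without ibuprofen and -0.00798 to 0.0142 with libraries left out, and its shift 0.00202 to 0.0358. For L-phenylalanine the late shift of -0.0359 was 0.00692 over genes of at least 50 TPM and -0.0640 to 0.0423 with libraries left out, the late slope -0.0412 was -0.0493 without ibuprofen (exact permutation p = 0.0291) and -0.0574 to 0.00514, and the early shift and slope -0.0171 to -0.000848 and -0.0101 to 0.00478.
SLC1A3 early with monosodium glutamate went from -0.48 to 0.11 without libraries of low length slope and 0.047 with length as covariate, and -0.65 to 0.11 with libraries left out. Of 591 values of 33 called genes under the alternatives, 453 kept their call, 132 lost it and 6 changed sign. The sign changes include those of MAD2L1, GNG10 and SLC2A3 without day. ATF4 lost its call under 13 of 22 alternatives. Leaving out day 1, leaving out day 21 and the days 2 to 6 and 8 to 39 subsets were chosen after seeing the data, as was leaving out a further day from fits without libraries of low length slope. Causes were not tested. Depth is unknown and limits all genes near 1 TPM.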

Other observations

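Summed neuronal and progenitor markers moved in the same direction with both amino acids on some days. On day 3 the neuronal sum was 5071 TPM with monosodium glutamate and 5018 TPM with L-phenylalanine, below the control range of 5386 to 5896 TPM, and on day 6 it was 9082 and 9224 TPM, above the range of 7725 to 8716 TPM. The neuronal sum was also above the control maximum of 9437 TPM on day 15, at 10039 and 9630 TPM. The progenitor sum went both ways. On day 6 it was 4732 and 4806 TPM, above the control maximum of 4650 TPM, and on day 39 it was 5116 and 4704 TPM, below 5421 to 6352 TPM. Each value is 1 library, the controls are shared, and no test was made on the sums.

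Cytosolic ribosomal proteins lay below 0 in all 22 genes late with L-phenylalanine once its day 21 library was left out, with a median of -0.109 beside 0.035 for all genes. Of these 0 passed limma's test and 4 had an unadjusted p below 0.05, beside 813 of all 16318 genes.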
